A study of Drosophila melanogaster with 7 samples.

Results

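The cuticle protein genes of Drosophila melanogaster were followed in RNA from larval fat body. Members were taken by symbol, as genes whose name begins with Cpr, Lcp, Ccp84, Pcp, Acp65 or Twdl, which gave 123 of the 14804 genes listed. One of them, Cpr itself, encodes NADPH-cytochrome P450 reductase and not a cuticle protein, and is given apart. The other 122 comprised 15 larval cuticle genes (Lcp), the pupal cuticle gene Pcp, the adult cuticle gene Acp65Aa, 7 Ccp84A genes, 26 Tweedle genes, 70 other genes of the CPR family and 2 Lcp pseudogenes.

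The insect cuticle is laid down by the epidermis and by other ectodermal epithelia such as trachea, foregut and hindgut, as chitin fibres embedded in protein. CPR proteins, to which the Lcp, Pcp, Acp65 and Ccp84 proteins also belong, carry a chitin-binding domain named after Rebers and Riddiford, and Tweedle proteins form a separate family whose mutants have altered body shape. Around the onset of metamorphosis ecdysone switches the epidermis from larval to pupal sets of these proteins. The fat body, the larval organ of storage and humoral immunity, does not lay down cuticle.

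Both genotypes carried the Bx-GAL4 driver, which the paper describes as expressed in wing imaginal discs and salivary glands. Control larvae came from a cross to w1118 and RasV12 larvae from a cross to UAS-RasV12. By that description the transgene was expressed in other organs of the larvae whose fat body was taken. Activity of the driver in the fat body was not tested here. Each of the 3 control and 3 RasV12 libraries was made from the pooled fat bodies of 40 wandering larvae, dissected without gonads. For the sample of control replicate 3 a first run (3A) and a repeat run (3B) exist, of which the first stands for it throughout. Nothing in the sources used here says whether replicates came from separate crosses, and p-values measure the spread between these libraries only.

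Levels are FPKM, fragments scaled to the length of the exon model and to the mapped fragments of the library, as estimated with Cufflinks, scaled here to equal upper quartiles. The number of fragments behind each FPKM was worked out from its confidence bounds. Control replicates 1, 2 and 3 held 6271146, 7327931 and 2900626 fragments over all genes, and RasV12 replicates 1, 2 and 3 held 4649276, 7137312 and 7305778. Up to 3 fragments were taken as the floor of detection, and fragments describe counting error only. A gene at FPKM 0 is described as listed at 0, because 14 genes had a 0 in 1 library although every other library showed at least 30 fragments of them. The summed level of 12 fat body markers was 117396 to 176020 in controls and 69078 to 119031 in RasV12 libraries. Markers of other tissues were uneven. The 14 midgut genes summed to 657 in control replicate 1 and 67.4 in control replicate 2 against 3.29 to 5.27 in the other libraries. The 10 testis genes summed to 3.47, 6.33 and 0 in controls and to 12.9, 146 and 24.4 in RasV12 libraries. All RasV12 libraries thus lay above all controls in the testis sum, with RasV12 replicate 2 far the highest. In bulk RNA, fewer cells of a type and less RNA per cell cannot be told apart.

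Most cuticle genes were not detected. Of the 122, 59 were listed at 0 in all 6 libraries, 40 were above 0 on at most 3 fragments in any library, and 23 exceeded 3 fragments in at least 1 library. Only 6 were above 0 in every library, namely Lcp1, Lcp4, Pcp, TwdlE, Cpr11A and Cpr49Ac. All 7 Ccp84A genes, Acp65Aa and both pseudogenes were listed at 0 throughout, as were the 3 genes of the Cpr65E cluster. The mean FPKM was 1 or more for 14 genes: Lcp1, Lcp2, Lcp3, Lcp4, Lcp65Ab1, Lcp65Ab2, Pcp, TwdlE and 6 of the other CPR genes. These 14 entered the test between genotypes.

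Control replicates 1, 2 and 3 had 15, 30 and 17 cuticle genes above 0, and RasV12 replicates 1, 2 and 3 had 27, 36 and 25. Control replicate 2 stood above the other controls, and the groups overlapped because of it. Over 3 fragments the numbers were 4, 16 and 4 in controls and 9, 15 and 9 in RasV12 libraries, so that control replicate 2 held the most. Genes of any kind above 0 numbered 9051, 9213 and 8283 in controls and 9606, 11052 and 10233 in RasV12 libraries, and the part of this wider detection in the cuticle gene counts was not tested.

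**Figure D1:**
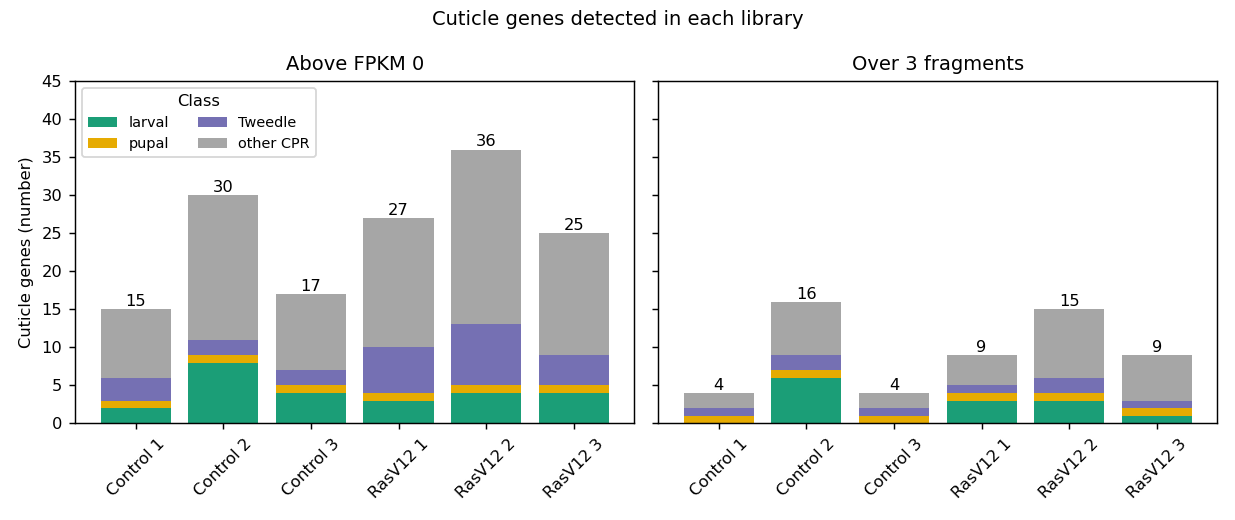
Number of cuticle genes (of 122) above FPKM 0 (left) and over 3 fragments (right) in each library, stacked by class. Control replicate 2 held 30 and 16 genes, against 15 and 4 in control replicate 1, and larval genes over 3 fragments were found in control replicate 2 and in the RasV12 libraries.

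The larval cuticle genes were highest in 1 control library. Of the 9 Lcp genes above 0 anywhere, 8 had their highest level in control replicate 2, and the other, Lcp65Ag2, rested on 1 fragment in RasV12 replicate 2. All 6 Lcp genes whose mean FPKM was 1 or more were highest in control replicate 2, where 15.7% of all 7575 genes tested had their highest level. Nothing is read from this count, since Lcp3 reached the minimum only through that library and Lcp65Ab1 and Lcp65Ab2 share their fragment numbers. Summed over the 15 Lcp genes, control replicates 1, 2 and 3 had scaled FPKM of 1.36, 341 and 13.9, and RasV12 replicates 1, 2 and 3 of 34.0, 26.3 and 5.74. The fragments behind these sums were 3, 830 and 6 in controls and 62, 82 and 10 in RasV12 libraries. The controls therefore held both the highest and the lowest sum, with all 3 RasV12 libraries between them.

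**Figure D2:**
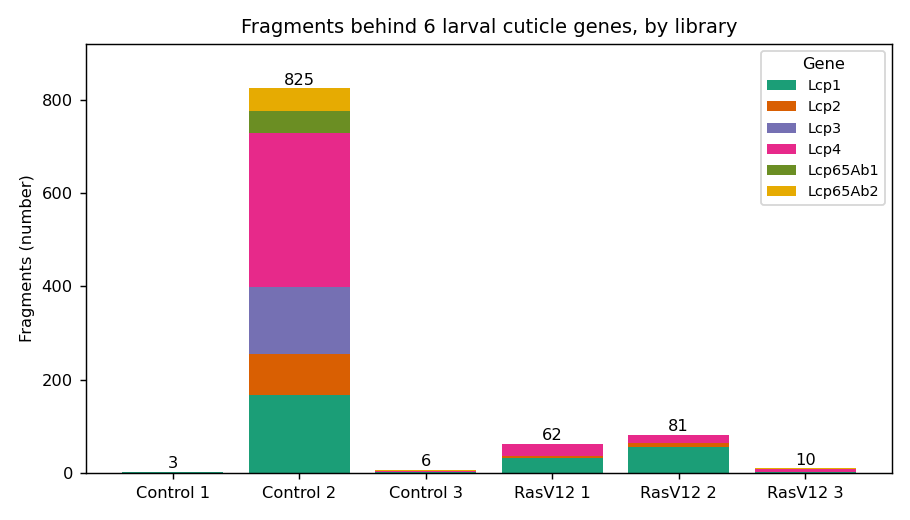
Fragments behind Lcp1, Lcp2, Lcp3, Lcp4, Lcp65Ab1 and Lcp65Ab2 in each library, stacked by gene. Most lie in control replicate 2, RasV12 replicates 1 and 2 hold smaller numbers made up mostly of Lcp1 and Lcp4, and Lcp3 appears in control replicate 2 only.

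The larval genes with the most fragments form the 44C cluster, in which Lcp1, Lcp2, Lcp3, Lcp4 and a pseudogene lie within 7770 bases of chromosome arm 2R (4318139 to 4325908, BDGP5). They encode major proteins of the larval cuticle. Lcp1 (FBgn0002531) had a scaled FPKM of 1.03, 72.5 and 3.87 in control replicates 1, 2 and 3 and of 21.0, 18.9 and 1.27 in RasV12 replicates 1, 2 and 3, on 2, 168 and 3 and on 33, 55 and 3 fragments. Control replicate 2 was highest, RasV12 replicates 1 and 2 followed, and the remaining 3 libraries were at the floor. Lcp4 (FBgn0002535) had 0.339, 94.5 and 0.862 in controls and 10.6, 3.69 and 1.41 in RasV12 libraries, on 1, 331 and 1 and on 25, 16 and 5 fragments. The controls spanned the whole range of Lcp4, and its RasV12 libraries all lay between control replicate 2 and the other controls.

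Lcp2 (FBgn0002533) was listed at 0 in control replicates 1 and 3 and in RasV12 replicate 3, and had 36.4 in control replicate 2 and 2.45 and 3.32 in RasV12 replicates 1 and 2, on 87, 4 and 10 fragments. It was found in the 3 libraries that were highest for Lcp1, its close paralog, and reads of the pair may have been shared in the counting. Lcp3 (FBgn0002534) was found in control replicate 2 only, at 64.7 on 143 fragments, and was listed at 0 in the other 5 libraries.

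The proportions of the cluster differed between the libraries that held it. Lcp3 made up 19.6% of the 729 fragments of the cluster in control replicate 2 (95% Clopper-Pearson interval 16.8 to 22.7), and 0 of 62 and 0 of 81 in RasV12 replicates 1 and 2. A count of 0 allows shares of up to 4.84% and 3.70% by the floor of 3 fragments, and of up to 5.78% and 4.45% by the Clopper-Pearson interval. Lcp1 made up 23.0% (20.03 to 26.28) in control replicate 2, 53.2% (40.12 to 66.02) in RasV12 replicate 1 and 67.9% (56.6 to 77.8) in RasV12 replicate 2. Lcp4 held 45.4% (41.7 to 49.1), 40.3% (28.1 to 53.6) and 19.8% (11.7 to 30.1) in the same order. By these intervals the share of Lcp3 was lower, and that of Lcp1 higher, in both RasV12 libraries than in control replicate 2. This compares 3 libraries and not the genotypes. The intervals take a listed 0 as a true count and the fragments of Lcp1 and Lcp2 as told apart, and neither was tested. The other libraries held 3, 4 and 8 fragments of the cluster, too few for a share.

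The 65A cluster on chromosome arm 3L (6123485 to 6154689) holds 19 genes of the Lcp65A, Cpr65A and Acp65A series, of which 10 were above 0 and 3 over 3 fragments. Lcp65Ab1 (FBgn0020644) was listed at 0 in control replicate 1 and in RasV12 replicates 1 and 2, and had 33.8, 4.66 and 1.55 in control replicates 2 and 3 and RasV12 replicate 3, on 48, 1 and 1 fragments. Lcp65Ab2 (FBgn0020643) had the same numbers of fragments in every library and levels of 32.9, 4.52 and 1.51 in the same libraries. The pair is near-identical, and its values cannot be read as independent of each other. Both were over 3 fragments in control replicate 2 only. Cpr65Ay, a CPR gene of the cluster, followed another order, with 0.729, 0 and 3.64 in controls and 2.70, 2.91 and 0 in RasV12 libraries, on at most 6 fragments. Outside the 2 clusters, Lcp9 was seen in control replicate 2 alone, at 4.99 on 3 fragments, as was Lcp65Ac within the second, at 0.965 on 2 fragments.

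Cuticle genes made up a part of the few genes far higher in control replicate 2 than elsewhere. Of genes with a scaled FPKM of at least 5 in a library and over 5 times every other library, it had 13, of which 5 were cuticle genes: Lcp2, Lcp3, Lcp4, Lcp65Ab1 and Lcp65Ab2. Control replicates 1 and 3 had 26 and 4 such genes and RasV12 replicates 1, 2 and 3 had 10, 61 and 18, with 0 cuticle genes in each. Of the 5426 genes at 5 or more in control replicate 2, 11 were cuticle genes. Lcp65Ab1 and Lcp65Ab2 share their fragment numbers but are counted apart among the 5, and nothing is read from this count. Cuticle genes other than Cpr49Ac held 0.0561% of the summed FPKM of control replicate 2, and 0.00388% to 0.0147% in the other libraries.

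**Figure D3:**
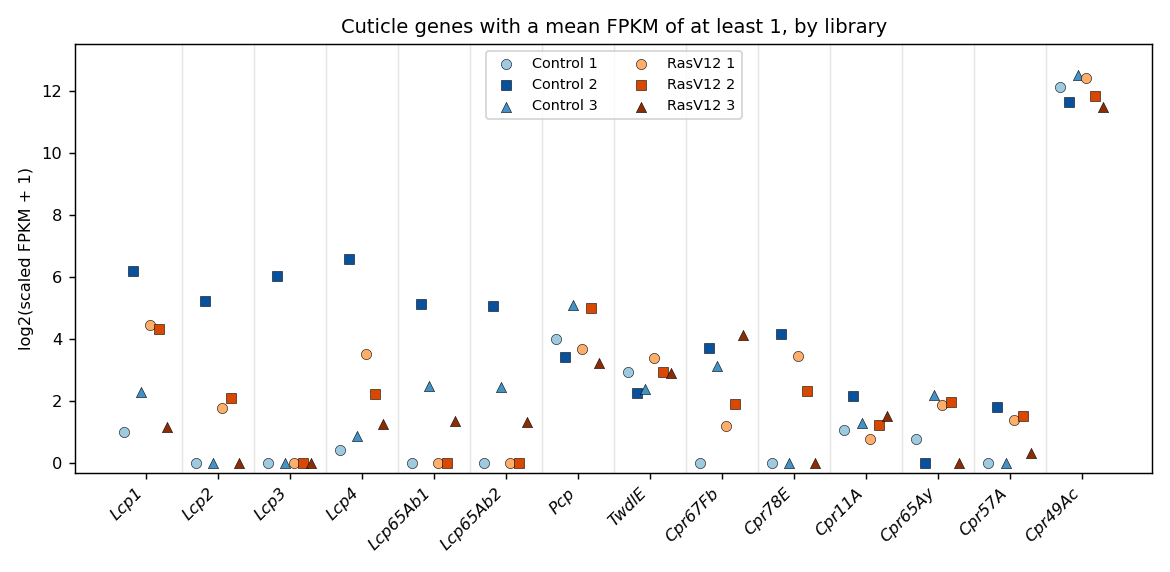
Log2(scaled FPKM + 1) of the 14 cuticle genes whose mean FPKM was 1 or more, with 1 point per library. Control replicate 2 is the highest point for the 6 Lcp genes, and Cpr49Ac lies far above the others in every library.

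Pcp, the pupal cuticle gene, was found in every library on 30 or more fragments. Control replicates 1, 2 and 3 had a scaled FPKM of 14.9, 9.63 and 33.1, and RasV12 replicates 1, 2 and 3 of 11.9, 31.0 and 8.42, on 47, 36 and 41 and on 30, 143 and 32 fragments. Control replicate 3 and RasV12 replicate 2 were high and close to each other, and control replicate 2, the library highest for the larval genes, was the second lowest. On the deposited FPKM the order at the top was the other way, with 26.8 in control replicate 3 and 37.2 in RasV12 replicate 2.

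Pcp (FBgn0003046; chromosome arm 2L, 7021682 to 7022473, plus strand) lies within ade3 (7014861 to 7023940, minus strand), which encodes an enzyme of purine synthesis. The level of ade3 was 219, 135 and 304 in controls and 405, 455 and 161 in RasV12 libraries. Pcp stood at 6.81%, 7.15% and 10.9% of ade3 in controls and at 2.94%, 6.81% and 5.23% in RasV12 libraries. Whether fragments were counted by strand is not given in the sources used here, so that reads of ade3 and of Pcp on the overlapping stretch cannot be told apart.

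Cpr49Ac was the exception among the cuticle genes in its level. This gene of the chitin-binding CPR family (FBgn0033725; chromosome arm 2R, 8274472 to 8277562) overlapped no other gene listed. Control replicates 1, 2 and 3 had a scaled FPKM of 4485, 3146 and 5739, and RasV12 replicates 1, 2 and 3 of 5393, 3614 and 2829, on 16956 to 39974 fragments. The groups overlapped over most of their range, the control mean being 4457 ± 1297 (SD, n = 3) and the RasV12 mean 3945 ± 1314 (SD, n = 3). It ranked 11th, 23rd and 15th of all genes by FPKM in controls and 12th, 15th and 24th in RasV12 libraries, and made up 0.399% to 0.756% of the summed FPKM. Of the summed level of the 122 cuticle genes, Cpr49Ac alone held 88.7% in control replicate 2 and 97.7% to 99.4% in the other libraries. Among the other 7 genes of the 49A cluster, Cpr49Ad alone exceeded 3 fragments, with 1.44 in control replicate 3 and 2.86 in RasV12 replicate 3 on 1 and 6 fragments, and was listed at 0 in the other 4 libraries.

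Of the 26 Tweedle genes, 11 were above 0 and 3 over 3 fragments. TwdlE (FBgn0031957; chromosome arm 2L, 7857957 to 7860838) was found in all libraries, at 6.63, 3.86 and 4.28 in control replicates 1, 2 and 3 and at 9.45, 6.72 and 6.53 in RasV12 replicates 1, 2 and 3, on 12 to 70 fragments. RasV12 replicate 1 was highest, and control replicate 1 lay between RasV12 replicates 2 and 3, so that the groups overlapped. Twdlalpha was found in RasV12 replicate 2 only, at 1.09 on 11 fragments, and lies in an overlap with CG9634. TwdlBeta reached at most 1.65, on 2 fragments in control replicate 3, and had its most fragments, 4, in control replicate 2. The other 8 Tweedle genes above 0 rested on at most 3 fragments each.

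Among the other CPR genes the highest library varied, being control replicate 2 for 14 of the 42 above 0 and RasV12 replicate 2 for 10. Cpr78E had 16.8 in control replicate 2 and 9.94 and 4.02 in RasV12 replicates 1 and 2, on 30, 12 and 9 fragments, and was listed at 0 in the other 3 libraries. The summed level of the 44C cluster was highest in the same 3 libraries. Cpr67Fb had 0, 12.2 and 7.83 in controls and 1.29, 2.76 and 16.6 in RasV12 libraries, on at most 19 fragments, with its highest level in RasV12 replicate 3. Cpr11A had 1.12, 3.46 and 1.45 in controls and 0.712, 1.37 and 1.87 in RasV12 libraries, with control replicate 2 highest. The groups of all 3 genes overlapped.

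Cpr60D followed the larval pattern on few fragments, at 5.35 on 11 fragments in control replicate 2 and 0.389 on 1 fragment in RasV12 replicate 2. Cpr57A, which overlaps Obp57d, had 2.48 in control replicate 2 and 1.64, 1.87 and 0.272 in RasV12 replicates 1, 2 and 3. These rested on at most 1 fragment each, and Cpr57A was listed at 0 in the other controls. The deposited status of its FPKM was LOWDATA, and not OK, in at least 1 library. The remaining CPR genes over 3 fragments were Cpr66Cb, with 10 fragments at most in control replicate 2, Cpr67B, Cpr47Eb, Cpr51A and Cpr12A, with 9, 7, 4 and 4 at most in RasV12 replicate 2, and Cpr92A, with 5 at most in RasV12 replicate 3. Cpr51A overlaps CG30197. None of these exceeded a scaled FPKM of 2 in any library.

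Counted over classes, the 63 cuticle genes above 0 were highest in control replicates 1, 2 and 3 for 5, 22 and 5 genes and in RasV12 replicates 1, 2 and 3 for 9, 16 and 6 genes. Over the 14 genes tested these numbers were 0, 9 and 3 and 1, 0 and 1, where the shares of all genes tested were 15.7%, 15.7% and 17.1% and 20.2%, 17.6% and 13.7%. The minimum fixed part of the 9, since Lcp3 and Cpr57A did not reach it without control replicate 2. Cpr57A did not reach it without RasV12 replicate 1 or RasV12 replicate 2 either. Nothing is read from these shares. Among genes over 3 fragments in some library, 10 were highest in control replicate 2 and 5 in RasV12 replicate 2.

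The comparison between genotypes asked whether the RasV12 genotype went with a change of cuticle transcripts in the fat body. No cuticle gene was called. Of the 14 tested, 8 had a log2 fold change below 0 and 6 above 0, with 49.7% of all genes below 0, and their median was -0.19 against 0.00 for all 7575 genes. At a Benjamini-Hochberg adjusted p under 0.05 and over 2-fold in limma, 0 of the 14 were called, where the share of all genes tested was 0.106%, and the lowest adjusted p was 0.531. At an unadjusted p under 0.05 there was 1, against 9.4% of all genes. In 0 of the 14 were the groups of 3 libraries fully separated, against 14.7% of all genes. All fold changes are on the scale of log2(scaled FPKM + 1), RasV12 minus control, which understates changes of low genes. For Lcp1 and Cpr78E, counted above 0, the mean scaled FPKM was higher in controls (25.8 against 13.7 and 5.59 against 4.65), so that their sign depends on the scale.

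The gene at an unadjusted p under 0.05 was TwdlE, with a log2 fold change of 0.54 (SE 0.23, unadjusted p = 0.0491, adjusted p = 0.531 in limma). Its control mean was 4.93 ± 1.49 (SD, n = 3) and its RasV12 mean 7.57 ± 1.63 (SD, n = 3), and it did not pass the adjusted threshold.

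The largest negative values belonged to the larval genes and rested on control replicate 2. Lcp65Ab1, Lcp65Ab2 and Lcp3 had log2 fold changes of -2.09 (SE 1.22), -2.07 (SE 1.21) and -2.01 (SE 1.59), with adjusted p of 0.618, 0.618 and 0.697 in limma. The value for Lcp3 depends on the pseudocount, since it was listed at 0 in all RasV12 libraries, and is no bound. Lcp2, Lcp4 and Lcp1 had -0.44 (SE 1.46), -0.29 (SE 1.63) and 0.15 (SE 1.48), with adjusted p of 0.936, 0.964 and 0.980. For Lcp1 the control mean of 25.8 had an SD of 40.5, and the RasV12 mean of 13.7 an SD of 10.8, so that the spread between controls exceeded the difference between the genotypes.

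Leaving out control replicate 2 moved the fold changes of the 44C genes well above 0. The log2 fold changes of Lcp4, Lcp1 and Lcp2 became 1.69 (unadjusted p = 0.0485, adjusted p = 0.885 in limma), 1.67 and 1.30, those of Lcp65Ab1 and Lcp65Ab2 fell in size to -0.80 and -0.79, and Lcp3 no longer reached the minimum for the test. Without control replicate 1, Lcp65Ab1 and Lcp65Ab2 had -3.37 and -3.34 (unadjusted p = 0.0093 and 0.00942, adjusted p = 0.665 for both). No cuticle gene was called in either case.

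**Figure D4:**
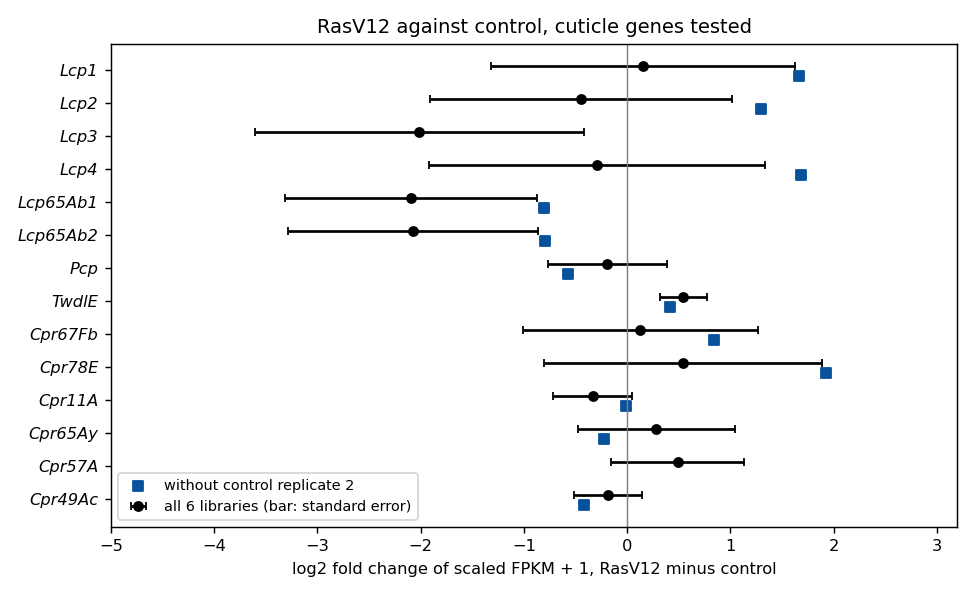
Log2 fold change of RasV12 against control for the 14 cuticle genes tested, from all 6 libraries with its standard error (black) and without control replicate 2 (blue). Without that library Lcp4, Lcp1 and Lcp2 move to 1.69, 1.67 and 1.30, while Pcp, TwdlE and Cpr49Ac move less.

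Of the others tested, Cpr78E had 0.54 (SE 1.35), and 1.93 without control replicate 2, Cpr57A 0.49 (SE 0.64), Cpr65Ay 0.28 (SE 0.76) and Cpr67Fb 0.13 (SE 1.14), with adjusted p of 0.906, 0.809, 0.916 and 0.977 in limma. Cpr11A had -0.33 (SE 0.38), Pcp -0.19 (SE 0.57) and Cpr49Ac -0.18 (SE 0.33), with adjusted p of 0.783, 0.927 and 0.869 in limma. The standard errors of Cpr49Ac and Pcp, which had 30 or more fragments in every library, were smaller than those of the Lcp genes. So were those of Cpr57A and Cpr65Ay, on at most 1 and 6 fragments, and the standard errors did not simply follow the fragments. For the 10 genes with more than 3 fragments that did not reach the minimum for limma, the lowest p in an exact two-sided permutation test was 0.2, and 0.1 is the smallest that 3 against 3 libraries allow. The groups overlapped in all 10.

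No other gene of cuticle formation examined was called. Of 50 genes for chitin synthesis, chitin turnover and other cuticle components, all were matched, 16 were tested and 0 were called in limma. At an unadjusted p under 0.05 there was 1, the chitinase gene Cht2, and the median log2 fold change was -0.01. Cht2 had 0.656, 0.371 and 0.849 in controls and 2.08, 2.21 and 1.18 in RasV12 libraries, all RasV12 libraries lying above all controls, with a log2 fold change of 0.79 (SE 0.32, unadjusted p = 0.0481, adjusted p = 0.531). The epidermal chitin synthase gene kkv did not exceed 0.325 in any library, and the pupal cuticle gene Edg84A was listed at 0 in all.

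Within the same list, 3 genes shared the peak of the larval genes. CG16885 had 7.56 in control replicate 2 on 36 fragments and at most 1 fragment in any other library, and lies in an overlap with Ance-3. CG16884 had 4.53 in control replicate 2 on 41 fragments and at most 1 elsewhere. CG16886 had 2.12 in control replicate 2 on 36 fragments and 0.862 in RasV12 replicate 3 on 15 fragments, with at most 1 in each of the others.

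Among the genes of tanning, by which new cuticle is hardened and coloured, 10 were matched and 4 tested. Dat, which encodes dopamine N-acetyltransferase, was lower in all RasV12 libraries (9.26, 5.73 and 10.9) than in all controls (11.1, 23.6 and 24.3), with a log2 fold change of -1.06 (SE 0.35, unadjusted p = 0.0196, adjusted p = 0.469 in limma), and was not called. Ddc, the dopa decarboxylase of tanning, was low, with 0, 0.231 and 0.939 in controls and 2.30, 1.44 and 0.344 in RasV12 libraries, and its groups overlapped.

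Of 30 ecdysone timing genes 27 were matched, 20 tested and 0 called in limma, with 1 lower at an unadjusted p under 0.05, the larval serum protein gene Lsp1beta (log2 fold change -0.79). Receptor and early genes such as EcR, br and Eip75B had log2 fold changes of -0.10, -0.15 and -0.12, and ftz-f1 had 0.30 (adjusted p = 0.734), its RasV12 libraries all lying above its controls. Eip93F, a late gene of the ecdysone cascade that did not reach the minimum for limma, had 0.147, 0.141 and 0 in controls and 1.31, 2.12 and 0.786 in RasV12 libraries, on 9, 6 and 0 and on 43, 121 and 58 fragments. All its RasV12 libraries lay above all its controls. Hr4 had 10.2, 2.63 and 7.39 in controls and 7.63, 22.5 and 1.06 in RasV12 libraries, and Hr46 5.34, 1.30 and 3.28 and 5.05, 7.79 and 0.634. Both nuclear receptor genes were second lowest in control replicate 2, the library highest for the larval cuticle genes, and lowest in RasV12 replicate 3. The same held for br, Eip75B, Eip78C and Hr39, and not for EcR, usp or Kr-h1.

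Markers of tissues that lay down cuticle were also summed. In control replicates 1, 2 and 3 the 13 epidermal markers summed to 1.98, 2.24 and 3.18, and in RasV12 replicates 1, 2 and 3 to 6.18, 4.37 and 2.43, with 1 of the 13 highest in control replicate 2 and RasV12 replicate 1 highest in the sum. In control replicate 2, 9 of the 13 were above 0, led by sv and pot on 24 and 11 fragments and kkv on 7, and ple, y, e and dy were listed at 0. The summed level of 10 tracheal markers was 4.19, 9.91 and 8.75 in controls and 7.41, 9.13 and 5.56 in RasV12 libraries. Of the 10, 8 were above 0 in control replicate 2, with btl and dys listed at 0 there. The 3 that were highest in that library were Gasp, verm and bnl. Gasp and verm also belong to the list of chitin genes above. The tracheal sum was thus highest in control replicate 2, by a narrow margin over RasV12 replicate 2 and control replicate 3. The 4 foregut and hindgut genes summed to 19.8, 9.88 and 19.7 in controls and 35.5, 29.6 and 21.7 in RasV12 libraries, lowest in control replicate 2 and above the Lcp sum in every other library. Most of this was drm, at 16.4, 6.28 and 14.5 in controls and 30.2, 24.3 and 16.5 in RasV12 libraries, all RasV12 libraries lying above all controls (log2 fold change 0.94, SE 0.38, unadjusted p = 0.0430, adjusted p = 0.531 in limma). Wing disc markers summed to 112, 103 and 115 in controls and to 179, 157 and 150 in RasV12 libraries, the lowest sum being that of control replicate 2. Most of this difference lay in Ance, with a mean of 50.1 in controls and 98.0 in RasV12 libraries. Its log2 fold change was 0.957 (SE 0.145, unadjusted p = 0.000394, adjusted p = 0.130 in limma), and it was not called. Among the 8 wing disc markers tested, only Ance had groups that did not overlap. The log2 fold changes of sd, bab2, ptc and hth were 0.60, 0.60, 0.41 and 0.26. Those of ap, dpp and Ubx were -0.103, -0.15 and -0.31. Of the 15 wing disc markers, 9 were highest in RasV12 replicate 1. Under the minimum, vg, nub, wg, rn, Dll and hh were highest there, on 4, 2, 2, 8, 10 and 15 fragments, and en in control replicate 1. The first 4 of these were listed at 0 in all controls. Midgut markers were second highest in control replicate 2 but highest in control replicate 1, where the Lcp genes were lowest. The part of other tissues in the larval cuticle transcripts was not tested beyond these sums.

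**Figure D5:**
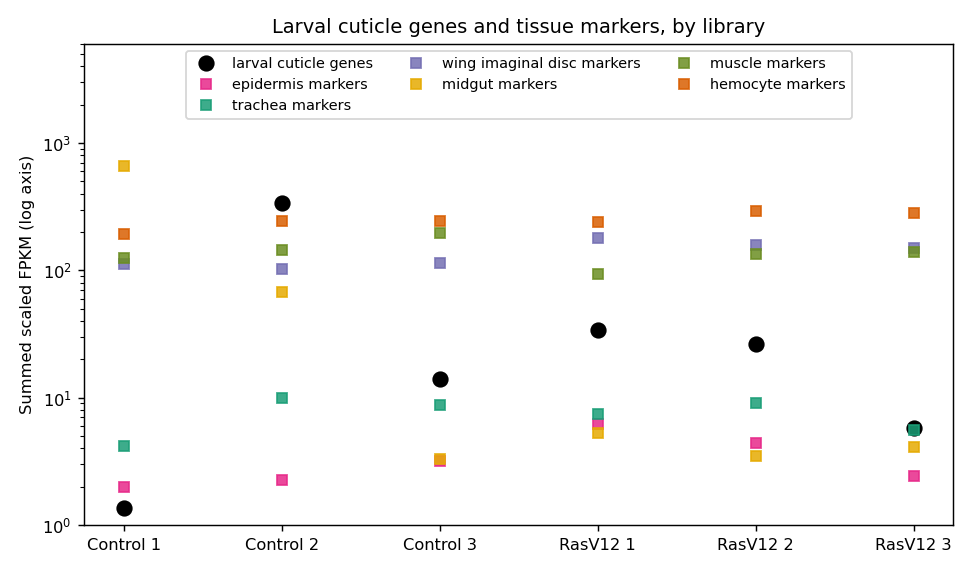
Summed scaled FPKM (log axis) of the larval cuticle genes (black) and of the markers of 6 tissues in each library. The larval genes reach 341 in control replicate 2, where the epidermal and tracheal markers sum to 2.24 and 9.91.

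The 10 genes outside the family whose profile over the 6 libraries was most like the mean of the 6 tested Lcp genes had Pearson correlations of 0.942 to 0.980, given as a description of 6 libraries dominated by 1 of them. CG32249 led with 0.980, at 17.5 in control replicate 2 on 193 fragments and at most 4 fragments elsewhere. CG16885, Kaz1-ORFA, CG10953 and CG13731 likewise had 36, 88, 46 and 103 fragments in control replicate 2 and at most 17 elsewhere, and Kaz1-ORFA overlaps several genes. Kr-h2, Tcp-1eta and Mat89Ba were present in every library and only moderately higher in that one, and 2 snoRNAs rested on 1 fragment each.

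Cpr, the gene of NADPH-cytochrome P450 reductase that the naming rule also caught, had 89.2, 115 and 62.2 in controls and 38.6, 43.2 and 69.2 in RasV12 libraries. Control replicate 3 lay below RasV12 replicate 3, so that the groups overlapped, and the log2 fold change was -0.81 (SE 0.30, unadjusted p = 0.0339, adjusted p = 0.531 in limma).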

How the data were processed

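RNA was sequenced as paired reads from fat bodies of wandering larvae. The authors mapped the reads with TopHat 1.0.14, took out duplicate reads and estimated FPKM and their confidence bounds with Cufflinks 0.0.5 (BDGP5, Ensembl genes), and these values are deposited library by library. Removal of duplicates can lower the FPKM of very abundant short genes. The authors' Cuffdiff comparison was not used here. The confidence bounds lie 2 SD from the FPKM, and the fragments implied were within 0.1 of a whole number for 116 of 124 low values of cuticle genes (93.5%). Coordinates are those of the deposited tables, given from 1. A newer annotation served for names, strand and the numbering of positions, and overlaps were taken from the deposited coordinates.

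FPKM were scaled by each library's 75th percentile, taken over genes not at 0 throughout. The factors were 1.02, 1.02 and 1.24 (controls) and 0.978, 0.832 and 0.993 (RasV12). Where the mean FPKM was 1 or more, log2(scaled FPKM + 1) was compared with limma 3.58.1 (lmFit, eBayes with trend) in R 4.3.3, and p-values were adjusted by Benjamini-Hochberg over 7575 genes. Genes under this minimum with more than 3 fragments were compared by exact permutation over 20 assignments of the libraries. On simulated data of 7528 genes, all given the same noise, the test called 197 of 200 changed genes and 5 unchanged ones. The Lcp genes varied more between libraries than this noise, so the share found in the simulation does not hold for them. The rest was done in Python 3.11.15 (scipy 1.17.1, pandas 2.3.3, matplotlib 3.10.9, numpy 2.4.6).

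The members, the gene lists and the tests were chosen with earlier results of these data known. Every cuticle gene that passed the minimum or exceeded 3 fragments was named, with full statistics for the larval and pupal genes, those at an unadjusted p under 0.05 and the 5 largest rises and falls. As alternatives the pseudocount was 0.1 or 5, the minimum was dropped or set to a mean of 5, scaling was dropped or used the median of ratios, control replicate 3 was run 3B or the table labelled as merged, eBayes was robust, the replicate number was a block, and each replicate was omitted. The tables give no sequencing batch. The other tissue markers not described by sum were those of salivary gland, hemocyte, muscle and nervous system. Over the 6 libraries their sums lay between 31.3 and 57.6, 192 and 291, 93.1 and 197, and 119 and 152. Of 9 hemocyte markers tested, 5 were higher in RasV12 libraries at an unadjusted p under 0.05 and 0 were called in limma. Their median log2 fold change was 1.23, although srp, the largest part of their sum, had -0.18. For Pxn, eater and crq all RasV12 libraries lay above all controls. Most of the nervous system sum was Syt1, at 118 to 151. In RasV12 replicate 1, elav, n-syb, brp and repo had their highest levels, 5.87, 3.55, 0.799 and 0.705, on 75, 17, 14 and 10 fragments.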

Additional observations from a re-analysis of the deposited data

How the results depend on the processing

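No cuticle gene was called under any of the 16 alternatives. Control replicate 2 was highest for 8 of 9 larval genes without scaling, with the median of ratios and with either other table for control replicate 3, whereas Pcp was highest in RasV12 replicate 2 without scaling and with run 3B (30.6 against 23.6 in run 3B). The 8 genes called over all genes became 5 with a pseudocount of 5, 5 with run 3B and 3 with the replicate block, and 5 to 61 with each replicate left out, the 61 without RasV12 replicate 3. Cuticle genes at an unadjusted p under 0.05 fell from 1 to 0 with a pseudocount of 5, a mean FPKM of at least 5, the merged table or run 3B, and numbered 0 to 3 with each replicate left out. Those below 0 numbered 27 of 63 without the minimum, against 8 of 14, and 6 to 12 with each replicate left out.

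Without scaling the median of all genes moved to 0.20, and Cpr49Ac and Pcp turned to 0.039 and 0.025. With a pseudocount of 5, Cpr67Fb and Lcp1 turned to -0.020 and -0.029, with 0.1 Lcp2 and Lcp4 turned to 0.42 and 0.20, and with run 3B Cpr67Fb turned to -0.16. With each replicate left out, the log2 fold changes ranged from -0.44 to 0.027 for Cpr49Ac, -0.22 to 0.92 for Cpr65Ay, -1.02 to 0.85 for Cpr67Fb, -0.22 to 1.93 for Cpr78E, -0.92 to 1.67 for Lcp1, -1.31 to 1.30 for Lcp2, -1.39 to 1.69 for Lcp4 and -0.70 to 0.27 for Pcp. The cause was not tested.

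Replicate numbers did not pair the libraries, since correlations of same-numbered deviations were 0.0879, -0.168 and -0.150. With the replicate block, 3 genes were called in all and 0 cuticle genes, and TwdlE had an unadjusted p of 0.0166 and an adjusted p of 0.675 in limma. Fold changes are the same with the block by construction.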

Other observations

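In the table labelled as both runs of control replicate 3 merged, 94.3% of 6869 genes lie within 1% of 0.771 times their FPKM in run 3A, and 439 of 456 genes seen in run 3B alone are listed at 0. TwdlE departs from this, with a deposited FPKM of 5.78 on 26 fragments in the merged table, 3.46 on 12 fragments in run 3A and 0.929 on 1 fragment in run 3B. With the merged table in place of run 3A, TwdlE no longer had an unadjusted p under 0.05. TwdlF was at 0.041 in the merged table and listed at 0 in both runs.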
